A study of Homo sapiens with 2 samples.

Results

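The genes described are the human histone genes, taken as every row of the expression tables whose symbol began with HIST1H, HIST2H, HIST3H, HIST4H, H2AF or H3F3, or was H1F0 or H1FX. This rule gave 84 of the 19198 genes used, of which 70 lie in the histone clusters and 14 encode variant histones. The series compared A549-NICD1 cells, made to overexpress the intracellular domain of the receptor NOTCH1, with A549-Vector cells, which carried the control vector. NICD1 was delivered with a lentiviral vector of the pSin-EF2 type, according to the study's methods. Both carried the label of A549, a long-established line from a human lung adenocarcinoma, and of non-small cell lung cancer, with no other allele, dose or time given. NICD1 cannot be told apart from other differences between these cultures. PolyA RNA was sequenced from 1 library of each, so differences were not checked in replicates and no test between the conditions could be made.

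Histones package DNA: a core of H2A, H2B, H3 and H4 is wrapped by DNA, and the linker histone H1 sits where the DNA enters and leaves. The clustered, replication-dependent genes are intronless and are switched on in S phase, when new chromatin needs histones in bulk. Their main mRNAs do not end in a polyA tail but in a short stem-loop, which is bound by the stem-loop binding protein SLBP and cut with the help of the U7 small nuclear ribonucleoprotein. The variant genes lie outside the clusters, some with introns and some without, and most give polyadenylated mRNAs throughout the cell cycle. PolyA selection keeps RNA with a tail, so the values of clustered genes below do not measure their main mRNA form.

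The sequences that set both classes apart are shown first, read from GENCODE 29 transcripts on hg38. For the stem-loop, capitals mark the 16 bases of stem, loop and stem, with 5 bases of the transcript on each side.

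HIST3H2A: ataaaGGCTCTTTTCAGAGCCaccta
HIST1H2BD: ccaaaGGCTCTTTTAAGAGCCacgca
HIST1H3E: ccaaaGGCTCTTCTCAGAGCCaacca
HIST1H4E: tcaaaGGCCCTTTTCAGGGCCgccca
H2AFX: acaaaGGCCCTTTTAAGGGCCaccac

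The HIST3H2A element lies on the minus strand at chr1:228457364-228457389, and that of HIST1H2BD on the plus strand at chr6:26158582-26158607. The HIST1H3E element is at chr6:26225591-26225616 and the HIST1H4E element at chr6:26204996-26205021, both on the plus strand. H2AFX, on the minus strand at chr11:119094893-119094918, was the exception among variant genes. At least 60 bases after the stop codon could be searched in 32 clustered and 13 variant genes. A stem-loop was found in 31 of the 32 clustered genes, HIST1H2BJ being the one without, and in 1 of the 13 variant genes. A single form, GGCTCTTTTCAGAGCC, served 17 clustered genes of the H2A, H2B and H3 families. The H4 genes had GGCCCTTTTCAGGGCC in 5 cases and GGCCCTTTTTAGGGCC in 3. HIST1H4J held one within its 44 bases after the stop codon, whereas none was found in the 51 bases of HIST1H4C, and the GENCODE transcripts of HIST1H2BK and HIST1H1C end at the stop codon.

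The polyadenylation signal AATAAA, which directs cleavage and tailing of ordinary mRNAs, was looked for in the last 50 bases of each transcript and is shown in capitals.

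H2AFZ: gataagttcAATAAAggtcatatc
H1F0: aaactttaaAATAAAttggaaaag
HIST1H2BD: gttataattAATAAAatctgcgga
HIST2H2BE: attgttattAATAAAgttaccaat

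These lie at chr4:99948093-99948116 on the minus strand, chr22:37807402-37807425 on the plus strand, chr6:26171316-26171339 on the plus strand and chr1:149884468-149884491 on the minus strand. The signal was present in 8 of the 13 variant genes, and other forms of it were not searched for. It was also present in 18 of the 32 clustered genes, 17 of which carried the stem-loop as well, so that both elements are often annotated in the same gene.

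Sequencing depths worked out from the expression values were 48528434 reads for A549-NICD1 and 48602848 for A549-Vector. Values are FPKM, reads per unit of gene length and of sequencing depth, from which whole reads were recovered. A log2 fold change is A549-NICD1 over A549-Vector on the scale of reads plus 0.5, and its range in parentheses is a 95% Clopper-Pearson interval, which covers counting error only. NOTCH1 stood at 5.40 FPKM in the vector library and 2865 FPKM in the NICD1 library, and RFC4, a subunit of the replication factor C clamp loader, at 39.5 and 4075 FPKM. The labelled cell line was checked with 8 genes typical of A549, of which 6 were under 1 FPKM in both libraries and KRT7, KRT19 and FGB were listed at 0. All 8 genes of a list typical of HEK293 cells reached 1 FPKM in each library, led by CDKN2A at 139 and 138 FPKM. The markers thus go against the A549 label in both libraries alike, and the names below are those of the labels.

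Where a stem-loop could be located, the gene lengths behind the values were mostly close to the distance from transcript start to stem-loop end. The gene length contained in each value was recovered together with the reads and was set beside the distance from the transcript start to the stem-loop end for 25 clustered genes with 10 or more reads in a library. Only a length was recovered, so where it ends rests on counting having begun at the GENCODE transcript start. On that reading, in 12 of them the counted gene ended 4 to 9 bases past the stem-loop, and in 8 of these exactly 5 bases past it, which is about where the short mRNA is cut. HIST1H4I, HIST1H4E, HIST2H2AA3 and HIST2H4B, 4 in all, were more than 40 bases shorter than this distance, so starts can differ. The length of HIST2H2AA3, taken as 445 bases, is uncertain, because its values fit 89 bases and multiples of it. A longer multiple would take it out of this group. Another 5 were more than 40 bases longer. HIST2H2BE was counted over 2223 bases, 1758 beyond the stem-loop, HIST2H2BF over 747, HIST1H2BD over 651 and HIST1H2AE over 564. HIST1H2BN was the fifth at 898 bases, but a length is known up to a whole-number factor, and its values fit 449 bases as well. The distance used for it was 427 bases. Another GENCODE transcript of HIST1H2BN has a stem-loop at a different place, ending 1346 bases from its start. Its place in this group therefore depends on the transcript chosen. The variant H2AFX was counted over 1594 bases, 1024 past its stem-loop. If counting began at the transcript start, reads from a tailed transcript far past the stem-loop were not in the value for most of these 25 genes. How many such reads there were cannot be told from these tables. HIST1H4C and HIST1H2BK, which hold most of the clustered reads, could not be compared, and HIST1H2BK was counted over 669 bases.

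In both libraries the variant genes made up most of the histone mRNA that was sampled. Summed FPKM of all 84 genes was 1714 in A549-Vector and 1568 in A549-NICD1, of which variants held 85.2% and 85.3%. Within families the variant share was 88.9% and 90.9% for H1, 94.2% and 94.8% for H2A, and 98.1% and 97.9% for H3, in A549-Vector and A549-NICD1 respectively. H2B and H4 have no variant under the rule, and their sums came from clustered genes alone. FPKM of H2B summed to 69.0 and 72.2, and that of H4 to 98.1 and 89.0. Every family except H2B thus had a lower sum in A549-NICD1 on the FPKM scale, before the scaling between libraries described below.

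**Figure D1:**
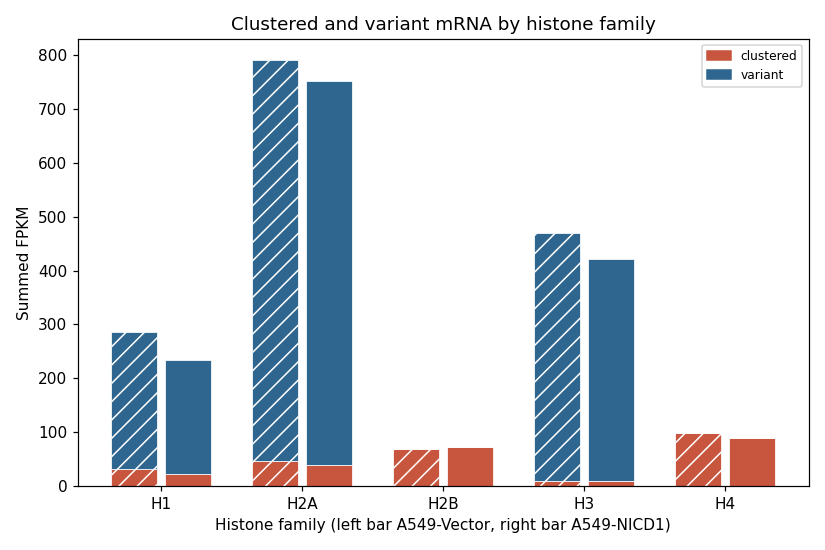
Summed FPKM of clustered and variant genes for each histone family, with A549-Vector on the left (hatched) and A549-NICD1 on the right (plain), 1 library each. Variants fill most of H1, H2A and H3, whereas H2B and H4 consist of clustered genes.

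A total of 9 variant genes lay above 10 FPKM, and their order was nearly the same in both libraries. H2AFZ, which encodes the H2A.Z found at promoters and enhancers, was highest, with 359 FPKM in A549-Vector cells and 342 FPKM in A549-NICD1 cells. The H3.3 genes H3F3A, at 296 and 248 FPKM, and H3F3B, at 164 and 164 FPKM, came next, and both encode the same protein, which replaces H3 outside of replication. H1FX, a linker histone, stood at 140 and 130 FPKM, H2AFY, which encodes macroH2A1, at 131 and 134 FPKM, and H2AFX, whose protein is phosphorylated at DNA breaks, at 123 and 124 FPKM. These neighbours lay close together, and H1FX and H2AFY changed places between the libraries. H1F0, the linker histone of resting and differentiated cells, followed at 114 and 82.3 FPKM, then H2AFV, the second H2A.Z gene, at 86.6 and 70.6 FPKM, and H2AFY2, which encodes macroH2A2, at 44.9 and 42.4 FPKM.

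The remaining variants were near the lower end. H3F3C, an intronless H3.3 relative, was at 0.759 and 0.390 FPKM, and H2AFJ at 0.123 and 0.0618 FPKM. H2AFB1, H2AFB2 and H2AFB3, copies of a testis-expressed short H2A with 79.6% to 100% of their sequence windows in common with another gene, were listed at 0 in both.

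Among clustered genes the level was concentrated in a few. HIST1H4C (chr6:26103876-26104310, plus strand, single exon) had 90.4 FPKM in A549-Vector cells and 82.6 FPKM in A549-NICD1 cells, which is 92.1% and 92.8% of all H4. HIST1H2BK (chr6:27146418-27146798, minus strand, single exon) was at 50.1 and 51.4 FPKM, which is 72.6% and 71.2% of all H2B. Both genes together held 55.4% and 58.2% of the clustered FPKM. The third, HIST3H2A (chr1:228456979-228457873, minus strand), an H2A gene of the small cluster on chromosome 1, was at 30.9 and 20.98 FPKM. They were followed by the linker genes HIST1H1C and HIST1H1E. In A549-Vector only 5 clustered genes reached 10 FPKM, and 21 reached 1 FPKM, against 23 in A549-NICD1. The median over the 70 genes was 0.466 and 0.495 FPKM. HIST1H4G, HIST1H2BI, HIST1H2BG, HIST1H2BA, HIST1H2AD and HIST1H2AA were listed at 0 in both libraries. A count of 0 allows up to 3 reads, which for a gene of 400 bases in A549-NICD1 is 0.155 FPKM.

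**Figure D2:**
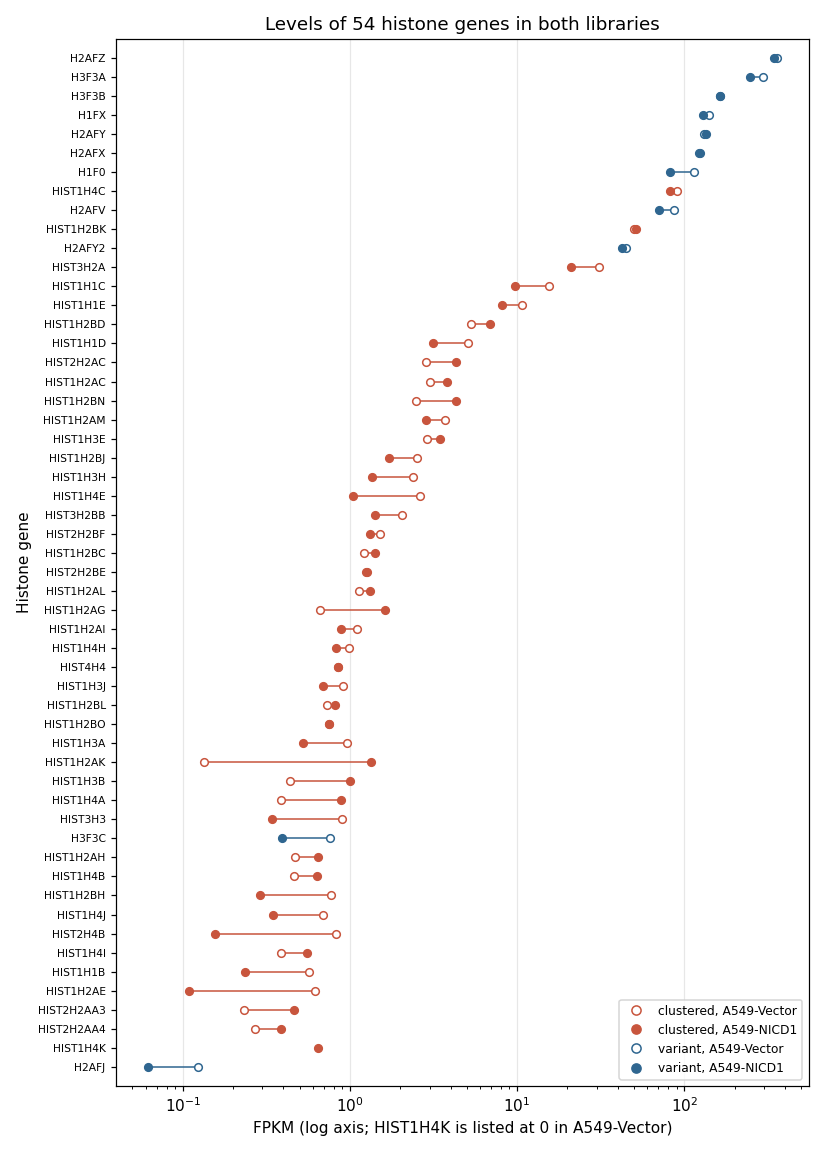
FPKM (log axis) in A549-Vector (open) and A549-NICD1 (filled) of the 54 histone genes that had 10 or more reads in a library, ordered by their mean, with 1 library per condition. Of the clustered genes, HIST1H4C and HIST1H2BK lie among the variants, and the others shown lie between 31 FPKM and 0.1 FPKM, apart from the 0 of HIST1H4K in A549-Vector, which a log axis cannot show.

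The clustered genes known to also give polyadenylated mRNA were not all high. HIST1H2BD was at 5.31 and 6.90 FPKM, HIST1H2AC at 3.01 and 3.81 FPKM, HIST1H2BC at 1.22 and 1.41 FPKM, HIST2H2BE at 1.24 and 1.27 FPKM, and HIST1H4H at 0.990 and 0.826 FPKM. HIST1H2BK and HIST1H1C are of the same group, and all 7 lay above the median of the clustered genes in both libraries.

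Changes between the libraries were then examined for genes reaching 10 reads in either library, which were 43 of the 70 clustered and 11 of the 14 variant genes. No variant passed 2-fold in either direction. Of the clustered genes, 5 (11.6%) were more than 2-fold higher in A549-NICD1, against 4.16% of the 15232 genes tested, and 6 (14.0%) more than 2-fold lower, against 2.15%. These genes were low: 4 of the 5 and 5 of the 6 were among the 22 clustered genes with fewer than 50 reads summed over both libraries, and the others among the 12 with 50 to under 200. Below 50 reads, 30.7% of all genes tested were past 2-fold up and 15% past it down, beside 18.2% and 22.7% of the clustered genes. From 50 to under 200 reads, the background was 10.1% and 6.33%, beside 8.33% and 8.33%. None of the 9 clustered genes with 200 or more reads passed 2-fold, where the background was 0.794% and 0.369%.

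The 5 clustered genes past 2-fold upwards belonged to H2A, H3 and H4. HIST1H2AK had 3 reads in A549-Vector and 30 reads in A549-NICD1, which gave a log2 fold change of 3.18 (1.69 to 5.73). It lies inside the span of HIST1H2BN, which is transcribed on the other strand and had 108 and 188 reads. The study describes the sequencing as strand-specific, but whether the counting used strand is not given in the sources used here, so how reads of this overlap were assigned is uncertain. HIST1H2AG had 16 and 39 reads, a log2 fold change of 1.32 (0.47 to 2.28), and HIST1H3B had 10 and 23 reads, 1.22 (0.13 to 2.49). HIST1H4A, with 7 and 16 reads, had an interval that held 0 (-0.11 to 2.77). HIST1H4K was listed at 0 in A549-Vector and had 11 reads in A549-NICD1, which against a floor of 3 reads in A549-Vector is 3.81-fold higher. This ratio takes the 11 reads as exact, and the lower end of the counting interval was a log2 fold change of 1.38. All 100-base windows of HIST1H4K also occur in HIST1H4J, which had 12 and 6 reads, so that the split of reads between these copies is uncertain.

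The 6 clustered genes past 2-fold downwards came from every family. HIST1H4E was the best covered, with 48 reads in A549-Vector and 19 reads in A549-NICD1 and thus a log2 fold change of -1.26 (-2.13 to -0.49). HIST3H3, an H3 gene known from testis, had 21 and 8 reads, -1.28 (-2.72 to -0.10), and HIST1H1B, which encodes linker histone H1.5, had 22 and 9 reads, -1.19 (-2.54 to -0.06). HIST1H2AE had 17 and 3 reads, -2.27 (-4.86 to -0.66). HIST2H4B had 16 and 3 reads, -2.18 (-4.78 to -0.55), but 94.2% of its windows are shared with its copy HIST2H4A, at 2 and 1 reads. HIST1H2BH, with 16 and 6 reads, had an interval that reached above 0 (-3.00 to 0.07).

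All 6 linker histone genes tested, clustered and variant, were lower in A549-NICD1. Each of the 4 clustered H1 genes tested had an interval wholly below 0. HIST1H1C, which encodes H1.2, had 15.5 FPKM in A549-Vector cells and 9.66 FPKM in A549-NICD1 cells, from 550 and 343 reads, a log2 fold change of -0.62 (-0.82 to -0.43). HIST1H1E, for H1.4, was at 10.7 and 8.11 FPKM, -0.34 (-0.56 to -0.12), and HIST1H1D, for H1.3, at 5.08 and 3.16 FPKM, -0.63 (-0.98 to -0.30). HIST1H1B completed the set at 0.573 and 0.235 FPKM. The others, HIST1H1A with 2 reads and 1 read and the testis form HIST1H1T with 2 and 3 reads, were below 10 reads.

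Summed over all clustered H1 genes, reads were 1175 in A549-Vector and 784 in A549-NICD1, a log2 ratio of -0.53 (-0.66 to -0.40). Without HIST1H1C it was -0.45 (-0.63 to -0.27). Polyadenylated linker genes were lower as well. H1F0 had 6452 and 4654 reads, a log2 fold change of -0.42 (-0.47 to -0.36), while H1FX had 10282 and 9490 reads, -0.06 (-0.10 to -0.02). The interval for the difference between H1F0 and H1FX was -0.42 to -0.29, so the drop in reads was unequal within the variants too. Over all clustered genes other than H1, the log2 ratio of summed reads was -0.0028 (-0.06 to 0.05), and the clustered H1 genes lay 0.53 below it on the log2 scale (difference -0.53, interval -0.67 to -0.38). This comparison was not planned in advance, and H1 had the lowest median log2 fold change of the clustered families. Over all 15232 genes, 28.4% had an interval wholly below 0 and 27.8% one wholly above 0, so an interval that excludes 0 is common at these depths.

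**Figure D3:**
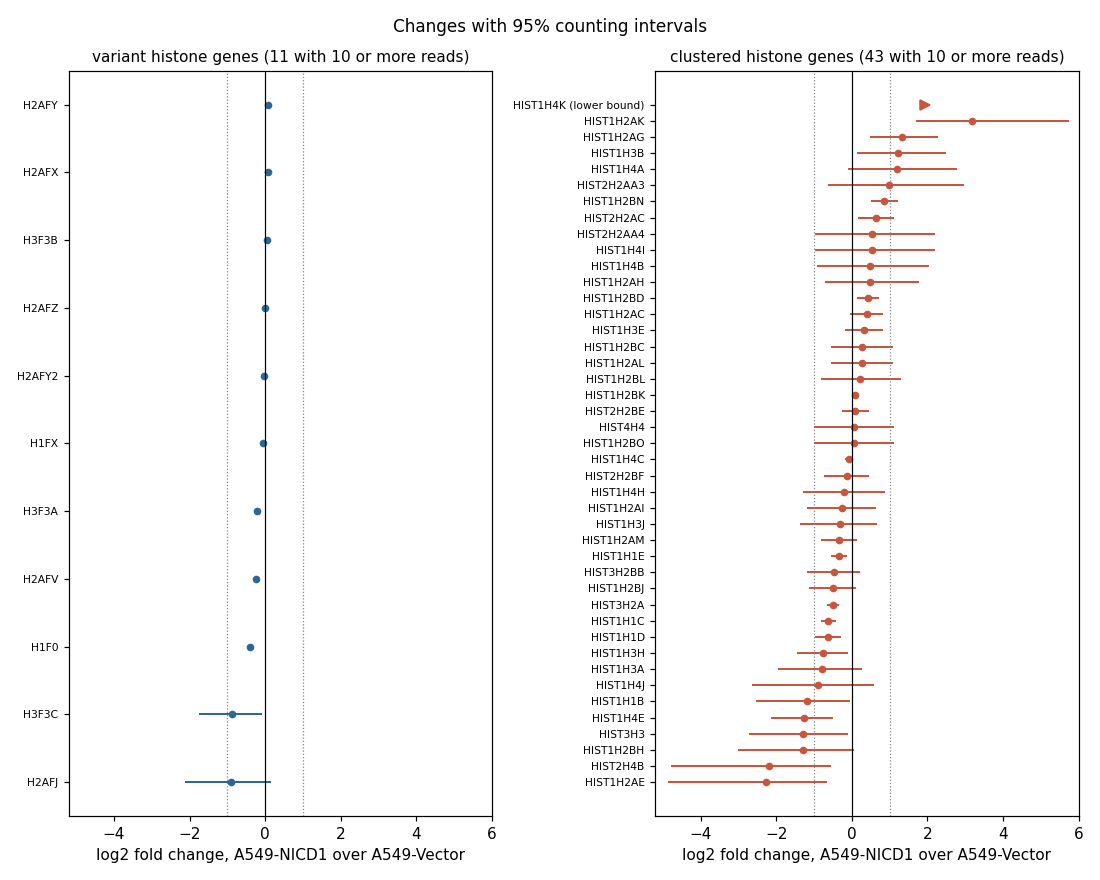
Log2 fold change (A549-NICD1 over A549-Vector) with 95% counting intervals for 11 variant (left) and 43 clustered (right) histone genes, from 1 library per condition. The triangle, labelled lower bound, marks HIST1H4K against the floor of 3 reads in A549-Vector and is not the lower end of its counting interval. Dotted lines mark 2-fold. All variants lie inside the dotted lines, and the clustered H1 genes lie left of 0.

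Among clustered H2A genes HIST3H2A was lower, from 745 and 505 reads, at -0.50 (-0.67 to -0.34). HIST2H2AC was higher at 0.63 (0.15 to 1.13), with 2.87 and 4.29 FPKM. HIST1H2AC, at 0.39 (-0.05 to 0.83), and HIST1H2AM, at -0.34 (-0.82 to 0.14) with 3.72 and 2.83 FPKM, had intervals that held 0. HIST1H2AM overlaps HIST1H3J on the same strand and shares 80% of its windows with it, so the assignment of its reads is uncertain. The copies HIST2H2AA3, with 5 and 10 reads, and HIST2H2AA4, with 7 and 10 reads, share 100% and 95.7% of their windows with other genes. HIST3H2A alone held 67.5% of clustered H2A FPKM in A549-Vector cells and 53.8% in A549-NICD1 cells, and the H2A sum, at -0.19 (-0.32 to -0.06), turned on it: without HIST3H2A, reads of the other clustered H2A genes summed to 354 and 423, a log2 ratio of 0.31 (0.11 to 0.52), and 8 of these 11 tested genes had a positive log2 fold change. The same gene bears on the sum of all clustered genes other than H1, which without it was 0.06 (0.0044 to 0.12).

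Of the family sums over clustered genes, only those of H2B and H3 were above 0, and only that of H2B by more than counting error. For H2B, summed reads were 2281 and 2415, a log2 ratio of 0.14 (0.05 to 0.22). HIST1H2BK, with 1630 and 1669 reads, had a log2 fold change of 0.09 (-0.01 to 0.19), within counting error. Intervals wholly above 0 were found for HIST1H2BD at 0.43 (0.13 to 0.73), from 168 and 218 reads, and HIST1H2BN at 0.85 (0.51 to 1.21), with 2.47 and 4.31 FPKM. For HIST1H2BN the smallest reads that fit its values are lower by a whole-number factor, and with them the interval was 0.36 to 1.37. Its 108 and 188 reads are part of the H2B sum, so the weight of this gene in that sum is uncertain as well. HIST2H2BE, at 0.09 (-0.27 to 0.44), and HIST1H2BC, at 0.26 (-0.54 to 1.08), were within counting error, and no H2B gene tested had an interval wholly below 0.

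H3 and H4 showed no common direction. HIST1H3E, the highest clustered H3 gene at 2.89 and 3.48 FPKM, was at 0.32 (-0.17 to 0.82), and HIST1H3H, outside the genes chosen by rule and singled out after its values were seen, was at -0.76 (-1.46 to -0.11) with 55 and 31 reads. The H3 sum was 0.03 (-0.25 to 0.32). HIST1H4C, with 1714 and 1563 reads, was at -0.08 (-0.18 to 0.02), and set the H4 sum of -0.09 (-0.18 to 0.01). HIST1H4H, with 18 and 15 reads, was at -0.20 (-1.30 to 0.86).

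Most variants moved little, 8 of the 11 by more than counting error. H3F3A had 15294 and 12763 reads, a log2 fold change of -0.21 (-0.24 to -0.17), whereas H3F3B, which encodes the same protein, had 22802 and 22833 reads, 0.06 (0.03 to 0.08). Their difference was -0.26 (-0.31 to -0.22). The same held for the H2A.Z pair, in which H2AFV was at -0.24 (-0.29 to -0.19) from 7706 and 6269 reads and H2AFZ at -0.016 (-0.05 to 0.02) from 16528 and 15729 reads, a difference of -0.23 (-0.28 to -0.17). Of the macroH2A genes, H2AFY was at 0.09 (0.05 to 0.12) and H2AFY2 at -0.03 (-0.09 to 0.03), a difference of -0.12 (-0.19 to -0.05). H2AFX was at 0.07 (0.03 to 0.11). The low genes H3F3C, with 39 and 20 reads, and H2AFJ, with 22 and 11 reads, were at -0.89 (-1.76 to -0.09) and -0.91 (-2.14 to 0.16). In all, 3 variants had an interval wholly above 0 and 5 one wholly below 0, beside 7 and 10 of the 43 clustered genes. These are 27.3% and 45.5% of the variants tested and 16.3% and 23.3% of the clustered genes. Over all genes tested the shares were 27.8% and 28.4%. An interval narrows with reads, so these counts also depend on how well a gene was covered. When libraries were scaled by total reads, no variant kept an interval wholly above 0. Genes on the opposite strand overlap H3F3B (UNK), H2AFY2 (AIFM2), H1FX (H1FX-AS1), H3F3A, H2AFZ and H2AFY, the last 3 only with antisense genes, so that for these too the assignment of reads depends on how strand was used in counting.

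Set against each other, both classes had slightly lower sums in A549-NICD1. Summed reads of the clustered genes were 6614 in A549-Vector and 6007 in A549-NICD1, a log2 ratio of -0.08 (-0.13 to -0.03), and those of the variants 105589 and 98301, a log2 ratio of -0.05 (-0.06 to -0.04). The difference of the classes was -0.04, with a conditional exact interval of -0.09 to 0.02, which does not show that they changed alike. Without HIST1H4C and HIST1H2BK, which carry most clustered reads, it was -0.13 (-0.21 to -0.06), and without H1F0 it was -0.06 (-0.11 to -0.0044). Median log2 fold changes were 0.06 for the 43 clustered genes, also with HIST1H4K set against the floor of 3 reads, and -0.06 for the 11 variants, beside -0.0035 over all genes tested. In the clustered genes, median and sum therefore had opposite signs. Within families, the clustered minus variant difference was -0.34 (-0.48 to -0.21) for H1, -0.18 (-0.31 to -0.05) for H2A and 0.08 (-0.21 to 0.37) for H3. In these bulk libraries, changes in the share of cells in S phase, in histone mRNA per cell or in its tailed share cannot be told apart. Nor can they be told apart from other differences between the libraries, and none of these was tested.

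Clustered H2A and H2B genes often sit head to head with their starts close together and so share a promoter region. These pairs were added after the values were seen. There were 11 pairs with starts within 500 bases, and in 7 both genes had at least 10 reads. Of these, 4 pairs had the same sign of log2 fold change and 3 had opposite signs. In every such pair the interval of a gene or of both genes held 0, so these signs can rest on counting error. HIST1H2BO, the partner of HIST1H2AM in a pair of opposite signs, had 17 reads in either library. In the HIST3H2A and HIST3H2BB pair both were lower, HIST3H2BB at 2.05 and 1.41 FPKM with -0.47 (-1.19 to 0.21). Levels within a pair could differ widely. HIST1H2BK was 107 times as high as its partner HIST1H2AH in A549-Vector and 80.0 times in A549-NICD1, HIST1H2AH being at 0.471 and 0.643 FPKM, and HIST3H2A was 15.1 and 14.8 times as high as HIST3H2BB. HIST1H2BK is among the clustered genes known to also give polyadenylated mRNA, so these ratios in polyA RNA need not hold for the main mRNA forms. Of the HIST1H2BK windows, 27.6% are shared with H2BFS. HIST1H2BJ, with 59 and 40 reads, was at -0.50 (-1.12 to 0.10), while its partner HIST1H2AG was at 1.32.

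Promoters were read from RefSeq on GRCh38.p14, 250 bases before to 50 after each start, and 72 of the 84 genes were matched. The promoter of HIST1H2BK is shown because this gene lay far above its partner. That of HIST3H2A is shown because both genes of its pair had a negative log2 fold change, that of HIST3H2BB within counting error. Capitals mark the TATA box TATAAA, the box CCAAT bound by NF-Y, and the octamer ATTTGCAT, each on either strand.

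HIST1H2BK: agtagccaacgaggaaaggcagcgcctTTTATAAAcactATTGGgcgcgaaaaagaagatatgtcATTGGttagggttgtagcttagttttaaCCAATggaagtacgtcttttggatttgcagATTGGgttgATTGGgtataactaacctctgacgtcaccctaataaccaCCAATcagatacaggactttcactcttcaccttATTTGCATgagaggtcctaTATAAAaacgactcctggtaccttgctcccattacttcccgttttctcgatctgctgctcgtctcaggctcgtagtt
HIST3H2A: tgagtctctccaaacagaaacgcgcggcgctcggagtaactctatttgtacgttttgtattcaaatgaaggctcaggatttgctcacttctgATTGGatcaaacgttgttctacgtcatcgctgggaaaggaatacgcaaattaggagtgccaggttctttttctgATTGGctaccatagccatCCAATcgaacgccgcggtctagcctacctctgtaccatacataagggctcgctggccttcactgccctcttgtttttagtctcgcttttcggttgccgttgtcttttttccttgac

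They lie on the minus strand at chr6:27146809-27147108 and chr1:228457824-228458123. HIST1H2BK held all 3 motifs, whereas HIST3H2A held CCAAT alone. The TATA box was in 66.7% of 60 clustered promoters against 11.95% of all 27305 promoters, and in 4 of 12 variant promoters. This background holds 1 promoter per gene and leaves out 1 chromosome, on which none of the histone genes lie. CCAAT was in every matched clustered promoter of H1, H2A, H2B and H3 but in 3 of 13 of H4, against 35.7% of all. The octamer, the site of the POU2F1 protein, was in 11 of 16 H2A and 9 of 13 H2B promoters, against 1.80% of all. GTGGGAA, the core site of RBPJ, the DNA-binding partner of NICD1, was in 2 of 60 clustered promoters and in 1 of 12 variant promoters, against 6.28% of all. The clustered matches were in HIST1H2BL and HIST1H2AI, a head-to-head pair with overlapping windows, and may be the same site. Windows of other head-to-head pairs overlap too. HIST1H3D and HIST1H2AD, on the same strand, were matched to the same window, which is thus counted under both H3 and H2A. The motif counts, including those of the octamer, are therefore not counts of independent promoters. A match is a description of letters in this window and says nothing about binding.

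Genes that make, read or carry histones showed no change past 2-fold in any of 5 lists, beside 0.794% and 0.369% of all genes with 200 or more reads. A count of 0 is near that share and is no result about these lists. For the formation of histone mRNA 3-prime ends, 21 of 21 genes were tested, with a median log2 fold change of 0.04. SLBP had 58.4 FPKM in A549-Vector cells and 54.2 FPKM in A549-NICD1 cells, -0.06 (-0.11 to -0.0029). The U7 proteins LSM10 and LSM11 were at -0.014 (-0.11 to 0.08) and 0.04 (-0.05 to 0.12), and CASP8AP2 at 0.04 (0.0017 to 0.09). ZNF473, a U7-associated zinc finger protein, was higher at 0.31 (0.21 to 0.42), with 6.23 and 7.46 FPKM.

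Of 11 genes for histone gene transcription, the median was 0.03. NPAT, the coactivator that gathers at histone clusters, was at -0.10 (-0.17 to -0.03), and HINFP, which binds H4 promoters, at 0.03 (-0.09 to 0.15). The lowest and highest genes of this list, singled out after their values were seen, were POU2F1 at -0.27 (-0.32 to -0.22) and E2F4 at 0.30 (0.22 to 0.38). The 13 genes for translation and decay of histone mRNA had a median of 0.04, and the lowest, also singled out by its value, was CTIF at -0.28 (-0.38 to -0.18). The 24 tested chaperone genes had a median of -0.0076, with ASF1A at 0.14 (0.05 to 0.24), ASF1B at -0.15 (-0.21 to -0.09), CHAF1A at 0.02 (-0.02 to 0.06), CHAF1B at 0.15 (0.08 to 0.22) and NASP, the H1 and H3 carrier, at -0.0071 (-0.04 to 0.02). Of the chaperones that place H3.3, HIRA was at -0.03 (-0.08 to 0.03), DAXX at 0.24 (0.19 to 0.29) and ATRX at -0.05 (-0.09 to -0.02). The 20 genes of DNA replication and S phase had a median of 0.05, and PCNA, the sliding clamp, stood at 186 and 188 FPKM, 0.07 (0.03 to 0.10). The highest of this list, singled out in the same way, was the licensing factor CDT1 at 0.38 (0.33 to 0.42). The medians of these lists lay between -0.0076 and 0.05, beside -0.0035 over all genes. Over the 4 clustered H1 genes tested the median was -0.63, the lowest of the clustered families, followed by -0.54 for H3. Setting H1 beside these lists was not planned in advance.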

How the data were processed

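The 2 tables hold 1 value per gene for A549-NICD1 and A549-Vector. The unit is not named in the sources used here, and the deposited values were read as FPKM because each could be written as a whole number of reads over a gene length and a library depth. The submitters' processing notes name hg38, Bowtie2 and HTSeq. The annotation and the normalization tool are not given in the sources used here. A total of 27 rows with date numbers in place of symbols were left out of 19225.

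Depths were found from the values and GENCODE 29 lengths, without the paper's numbers. All 17178 genes above 0 gave whole reads. At a depth raised by 1%, with lengths held as fitted, 3 of 500 checked genes did. This check cannot decide between depths that are multiples of each other. For A549-NICD1, a depth of 24264217 gave whole lengths in 38 of the genes tried, against 30 for the depth kept. The depth kept was chosen because lengths equalled a GENCODE transcript in 161 of 2584 genes, against 30 at the lower depth. Recovered reads made up 96.9% (A549-NICD1) and 96.8% (A549-Vector) of the depths. Each gene's length was the smallest fitting multiple that reached its longest GENCODE coding length, so reads of a gene are known up to a whole-number factor, which leaves ratios unchanged but affects filters and intervals.

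A549-NICD1 was scaled by 0.964, the trimmed mean of M values, trimming 30% of ratios and 5% of expression at each end. Log2 fold changes used a pseudocount of 0.5 reads, which understates changes of low genes. Genes needed 10 reads in a library. Intervals and the floor of 3 reads reflect counting error alone, as PCR copies were not marked and reads need not be separate molecules. Differences between 2 genes or sums are log2 odds ratios with conditional exact intervals. With 1 library per condition no p-value is given.

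To measure shared sequence, windows of 100 bases were cut from each member in steps of 10 and looked for in transcripts of other genes. The genes named were every variant, clustered genes past 2-fold, the 12 highest clustered genes, clustered genes known to give polyadenylated mRNA, copies of these, listed regulators, NOTCH1 and RFC4. Of the listed chaperones, 1 symbol was not matched. Members, lists and rules were chosen with earlier results of these data known. Alternatives covered scaling, pseudocount, filter, shared sequence and read recovery. Python 3.11.15, numpy 2.4.6, pandas 2.3.3 and scipy 1.17.1 were used.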

Additional observations from a re-analysis of the deposited data

How the results depend on the processing

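No paired analysis was possible because the series holds 1 library of either kind, and nothing here measures the spread between cultures. Scaling by total reads lowered every log2 fold change by 0.053, the log2 ratio of summed reads became -0.14 for clustered and -0.10 for variant genes, and the count of variants with an interval wholly above 0 went from 3 to 0. A pseudocount of 5 reads left 3 clustered genes past 2-fold upwards and 3 downwards. Without a filter on reads these were 14 and 10, and with at least 100 reads summed they were 0 and 0, where 3 clustered genes had an interval wholly above 0 and 4 one wholly below. Alternatives added after the values were seen left out single genes. Without HIST1H4C and HIST1H2BK the clustered sum was -0.18 and its difference from the variants -0.13, without H1F0 the variant sum was -0.027, and without HIST3H2A the clustered H2A sum turned from -0.19 to 0.31. Of the 54 genes tested, 7 moved beyond their main counting interval under total-read scaling and none did under the scalings without NOTCH1 and RFC4 or by median of ratios, the other pseudocounts or the smallest whole reads. Leaving out genes with over 50% of windows shared moved no sum, median or count past these limits. Genes under 50 reads limit what can be read from the clustered class. In most of the 25 genes compared, reads far past the stem-loop were not counted if counting began at the GENCODE transcript start.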
